A study of Mus musculus with 4 samples.

Results

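The comparison set bone marrow cells transduced with a β-catenin retrovirus against cells transduced with an enhanced green fluorescent protein (eGFP) retrovirus, both collected at day 3, across all genes with a probe set of 1 gene symbol. There were 18193 such genes on the array, and 13379 of them were measured in the pair, that is, at or above an intensity floor of 48.3 on at least 1 of the 2 arrays. The starting cells of both groups were LSK cells of mouse bone marrow (negative for lineage markers, positive for c-kit and Sca-1), a sorted fraction in which blood-forming stem and progenitor cells are concentrated. Both were grown in serum-containing medium to which IL-3, IL-11, SCF and Flt3 had been added, and each group was 1 Affymetrix array. The series asks through which genes, transcription factors above all, β-catenin brings about the immortalization of haematopoietic stem cells. Its other 2 arrays came from LSK cells that had received β-catenin and were cultured for 50 and 300 days (named DKmix), and they are used here only for the levels of single genes. Neither the promoter of the vectors, the form of β-catenin they carried, the share of transduced cells nor the number of mice is given in the labels.

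β-catenin is the transcriptional effector of canonical Wnt signalling. Without a Wnt signal a destruction complex of Axin, APC, CK1 and GSK3 marks it for degradation, and with a signal it accumulates, enters the nucleus and activates genes through TCF/LEF factors. In blood-forming tissue, LSK cells give rise to all lineages, and in culture with IL-3 and SCF they also mature into neutrophils, macrophages, mast cells and dendritic cells. With 1 array on each side no test and no p-value can be given, so every difference below is one between 2 arrays. A gene counts as higher or lower once the ratio of its intensities reaches 2-fold.

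The deposited intensities had been scaled to a trimmed mean of 150 on each array. The Gapdh control had a 3′ over 5′ intensity ratio of 1.18 on the β-catenin array and 4.14 on the eGFP array, and β-actin had 1.32 with β-catenin and 1.83 with eGFP. For the spiked control thr the ratio was 3.80 with β-catenin and 25.3 with eGFP, whereas for lys it was 1.44 with β-catenin and 1.79 with eGFP. These ratios moved with the groups and accompany every result below, and their part in the results was not tested. The 9 probe sets of the hybridisation controls were dimmer on the β-catenin array by a mean log2 ratio of -0.52 (range -0.92 to -0.29). Setting the scale on these controls moved the median log2 ratio of all genes to 0.46, against -0.013 on the deposited scale, and all ratios below are relative to the deposited scale.

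The labels were checked against the genes that define them. Ctnnb1, which encodes β-catenin, had 3 probe sets, of which the brightest gave 4492 with β-catenin and 4732 with eGFP (log2 ratio -0.08), whereas the other probe sets gave 1065 with β-catenin and 179.6 with eGFP (5.93-fold) and 678.6 with β-catenin and 300.8 with eGFP (2.26-fold). Of the markers of the sorted fraction, Kit, the SCF receptor, was at 82.9 with β-catenin and 55.8 with eGFP, close to the floor on both arrays, and at 3459.5 on day 50 and 1263 on day 300. Flt3, the Flt3 ligand receptor, was below the floor on both day 3 arrays (47.4 with β-catenin and 45.7 with eGFP), and Ly6a, which encodes Sca-1, was not analysed here. Some genes of mature myeloid cells were far above the floor on both arrays. Lyz1, a lysozyme, was at 3259 with β-catenin and 26573 with eGFP, and Csf1r, the M-CSF receptor, was at 1999.5 with β-catenin and 11798 with eGFP. Other such genes were not: the neutrophil granule genes Ltf (8.4) and Camp (28.9) were under the floor with β-catenin. The sort marker Kit was thus near the floor in both samples at day 3.

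Of the 13379 measured genes, 1365 (10.2%) reached 2-fold higher values with β-catenin and 1259 (9.41%) reached 2-fold lower values, and the median log2 ratio was -0.013. Both shares are the background for each list count below. The higher genes comprised 865 measured on both arrays and 500 whose eGFP intensity was under the floor, for which the fold is a lower bound. The lower genes comprised 751 measured on both and 508 with such a bound. The lower side reached further: 22 genes were at least 8-fold higher and 54 at least 8-fold lower, while 4 were at least 16-fold higher and 15 at least 16-fold lower. On the hybridisation control scale the counts became 3690 higher and 851 lower. A gene whose brighter intensity lay under 2 times the floor could not pass the threshold, and 4151 of the measured genes were of this kind.

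The only error measure within the pair was the disagreement between probe sets of the same gene. Over 3518 genes with 2 probe sets measured on both arrays, the log2 ratios of the 2 probe sets differed with an SD of 0.64 per probe set (the SD of the difference over the square root of 2), which leaves out any difference between cultures. A second probe set of a higher gene had the same sign in 414 of 585 cases (70.8%) and was itself past 2-fold in 28.7%. For lower genes, 340 of 521 second probe sets (65.3%) had the same sign and 25.7% were past 2-fold. Beyond 8-fold, second probe sets kept the sign in 8 of 10 higher genes and 15 of 16 lower genes. Between 2-fold and 4-fold, the share with the same sign was 68.9% for higher and 62.7% for lower genes.

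**Figure D1:**
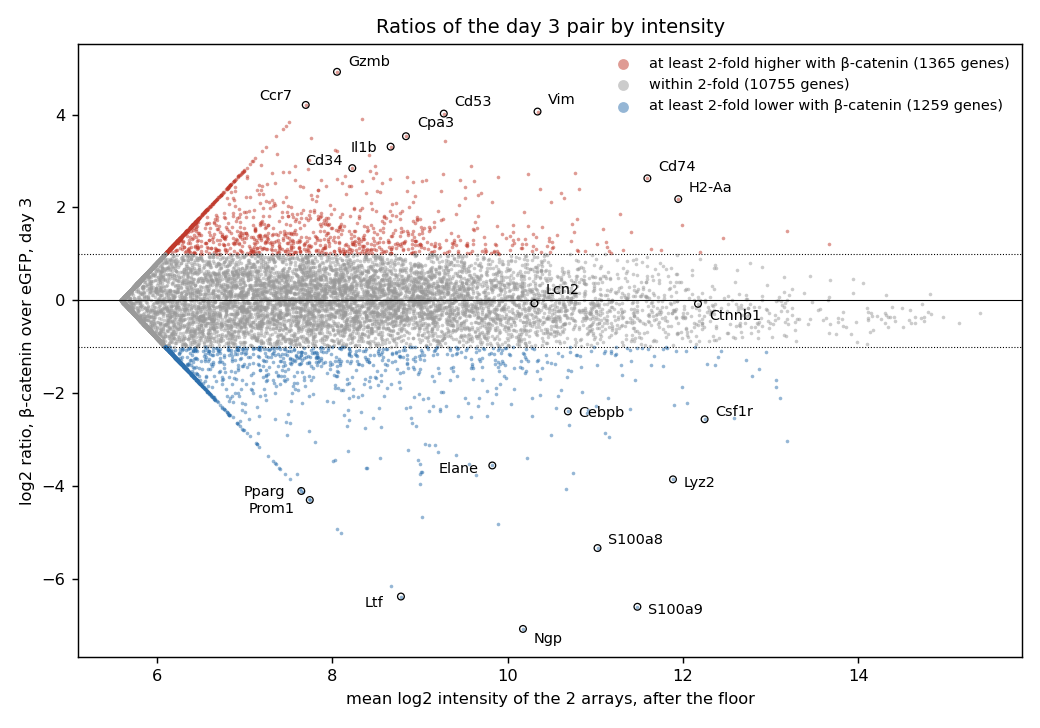
Log2 ratio of β-catenin over eGFP at day 3 (vertical axis) against the mean log2 intensity of the 2 arrays after the floor (horizontal axis), 1 point per measured gene, with dotted lines at 2-fold. Calprotectin and granule genes lie lowest, down to a log2 ratio of -7.08 for Ngp, while Gzmb lies highest at 4.92, as a lower bound; the oblique edges hold genes at the floor on 1 array.

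Neutrophil granule and maturation genes were the group with the lowest median. Of 37 measured members, 23 (62.2%) were at least 2-fold lower with β-catenin, against 9.41% of all measured genes, 3 were higher and 11 lay within 2-fold, with a median log2 ratio of -1.43. Neutrophil granule proteins are made in waves, and the wave that follows the promyelocyte stage, the secondary granules, held the most lower members: 10 of 11, with a median of -1.90. Of the 7 genes grouped with the primary granules, which are made earlier, 4 were lower (median -1.87). That group also held the myeloid lectin Clec5a, its only higher member. Of the tertiary granule and cytosol genes 6 of 10 were lower (-1.43), and of the receptors and late markers 3 of 9 (-0.58). In such a bulk sample, fewer cells of a type and less RNA per cell cannot be told apart.

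Ngp, a cathelicidin-like protein of neutrophil granules, was at 99.5 with β-catenin and 13424 with eGFP, a 135-fold lower value and, with the floor applied, the lowest ratio of all measured genes. S100a9 was at 290 with β-catenin and 28112 with eGFP, and its partner in calprotectin, S100a8, was at 328 with β-catenin and 13231 with eGFP. Ltf, the iron-binding lactoferrin, was at 8.4 with β-catenin, under the floor, and at 4017 with eGFP, at least 83.2-fold lower. The 2 arrays thus differed by more than an order of magnitude in each of these genes. On the DKmix arrays all of them were at 141.3 or below, with S100a9 at 13.5 on day 50 and 25.3 on day 300. Camp, the cathelicidin antimicrobial peptide, was at 28.9 with β-catenin and 943.4 with eGFP. Pglyrp1, which binds bacterial cell wall, was 28.4-fold lower (178.2 with β-catenin and 5056 with eGFP), Wfdc21 15.4-fold and Itgb2l, an integrin β chain of neutrophils, 12.1-fold.

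The genes grouped with the primary granules did not all move alike. Elane, neutrophil elastase, was 11.8-fold lower with β-catenin (264.5 with β-catenin and 3111 with eGFP), while Mpo, the myeloperoxidase of primary granules, was within 2-fold at 2231 with β-catenin and 4426 with eGFP. Lcn2, a siderophore-binding protein of secondary granules, was the one measured member of that wave within 2-fold, at 1237 with β-catenin and 1294 with eGFP. The members that went the other way were Anxa1, an anti-inflammatory annexin (2054 with β-catenin and 190.9 with eGFP, 10.8-fold higher), Fpr2, a formyl peptide receptor (152.4 with β-catenin and 50.6 with eGFP, 3.01-fold), and Clec5a, a myeloid lectin (119 with β-catenin and 57.9 with eGFP, 2.06-fold).

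**Figure D2:**
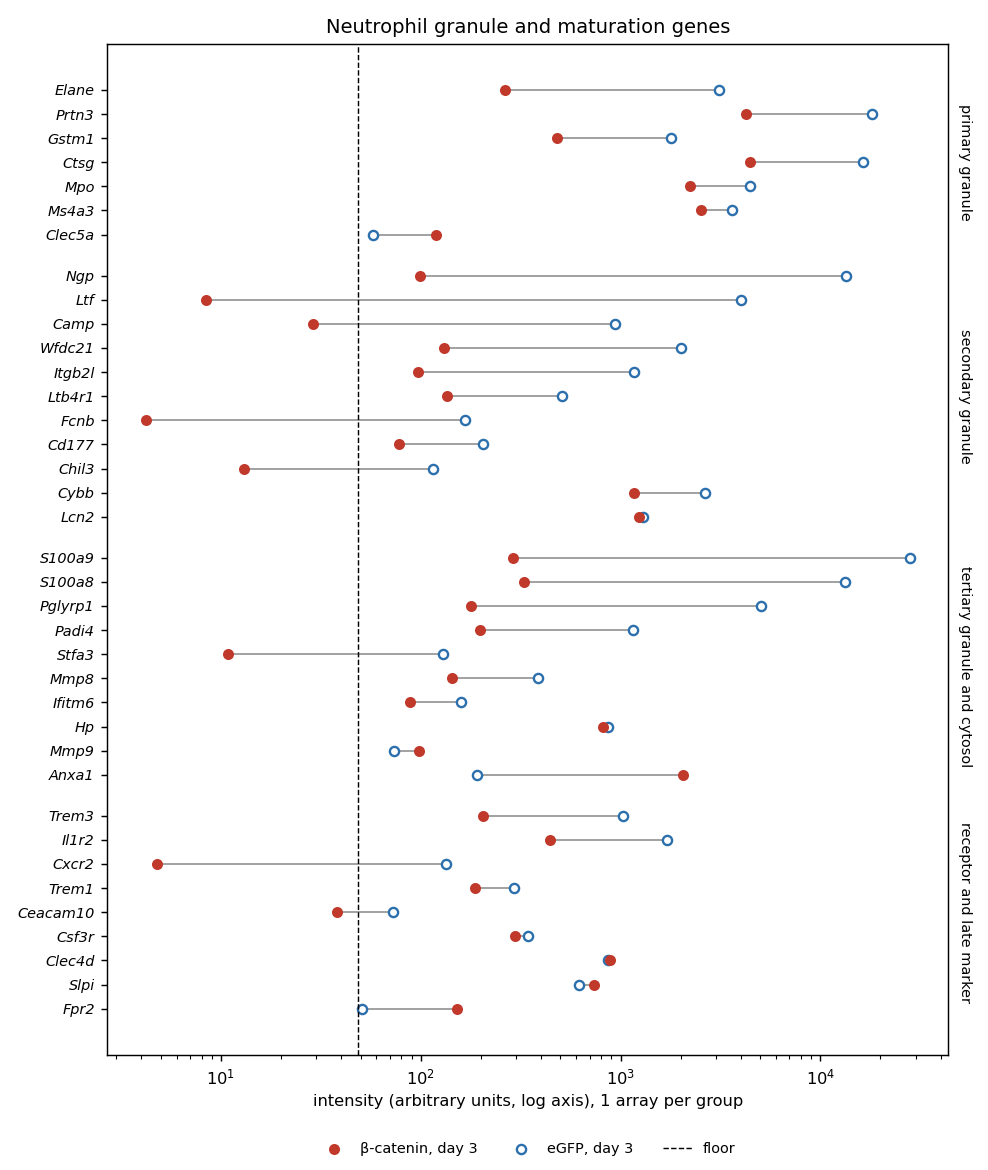
Intensity of the 37 measured neutrophil genes on the β-catenin array (filled red) and the eGFP array (open blue), 1 array per group, on a log axis with the floor of 48.3 dashed, grouped by granule wave. The filled points lie left of the open ones in 10 of the 11 secondary granule genes by 2-fold or more, and Lcn2 has its points side by side.

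The neutrophil granule genes Ngp, Ltf and Camp all lie on mouse chromosome 9, and S100a8 and S100a9 on chromosome 3. C/EBP factors bind the promoters of granule genes in maturing neutrophils, and a relaxed form of their word, TTGCNNAA, was looked for on both strands in RefSeq promoter windows (GRCm38.p6). The 250 bases before the annotated start are printed for the lower genes Ngp (chr9:110419558-110419807, plus strand), Ltf (chr9:111019042-111019291, plus strand) and S100a9 (chr3:90695722-90695971, minus strand), because each holds the word, in capitals.
Ngp: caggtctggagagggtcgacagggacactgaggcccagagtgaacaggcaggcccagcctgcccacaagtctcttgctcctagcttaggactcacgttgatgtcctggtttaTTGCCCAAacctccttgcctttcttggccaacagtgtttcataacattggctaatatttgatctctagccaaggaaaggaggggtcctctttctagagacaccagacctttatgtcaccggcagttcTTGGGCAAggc
Ltf: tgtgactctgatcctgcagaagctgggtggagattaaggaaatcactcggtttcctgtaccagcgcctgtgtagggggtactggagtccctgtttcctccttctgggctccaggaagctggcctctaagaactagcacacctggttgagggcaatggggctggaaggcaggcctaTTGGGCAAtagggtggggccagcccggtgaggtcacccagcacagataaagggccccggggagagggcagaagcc
S100a9: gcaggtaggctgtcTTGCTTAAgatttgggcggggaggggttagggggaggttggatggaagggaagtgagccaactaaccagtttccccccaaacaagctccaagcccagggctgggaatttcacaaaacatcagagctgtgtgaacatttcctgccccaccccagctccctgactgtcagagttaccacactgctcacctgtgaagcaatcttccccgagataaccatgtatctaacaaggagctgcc
In Ngp the matches begin 138 and 11 bases before the start, in Ltf 75 and in S100a9 236. A match is a description of letters and not a binding site. The windows of S100a8 and Camp did not hold the word, which says only that these letters are not there. The word was in the 300-base window of 116 of 1008 lower genes (11.5%), 105 of 1110 higher genes (9.46%) and 1118 of 10760 measured genes with a promoter in the table (10.4%).

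Macrophage and monocyte genes were divided. Of 36 measured, 7 (19.4%) had higher and 11 (30.6%) had lower values with β-catenin, against 10.2% and 9.41% of all measured genes. The median was -0.21, which became 0.24 on the hybridisation control scale. Of the lower genes 7 were among the 21 receptors and 4 among the 15 secreted and lysosomal genes. The secreted and lysosomal ones included Lyz2, the lysozyme of myeloid cells, at 994.2 with β-catenin and 14389.8 with eGFP (14.5-fold), Mpeg1, a macrophage perforin, at 221.8 with β-catenin and 2568 with eGFP (11.6-fold), and Lgals3, galectin-3, at 1957 with β-catenin and 9079 with eGFP (4.64-fold). Csf1r was 5.90-fold lower and Csf2ra, a GM-CSF receptor chain, 4.66-fold lower, at 346.7 with β-catenin and 1614 with eGFP. A further Csf1r probe set was also lower, at 705.7 with β-catenin and 3503 with eGFP (4.96-fold), and another was within 2-fold, at 549.6 with β-catenin and 573.8 with eGFP. Higher members were Marco, a scavenger receptor (350.4 with β-catenin and 10.5 with eGFP, at least 7.26-fold), Ccr2, the receptor of inflammatory monocytes (334.2 with β-catenin and 30.9 with eGFP, at least 6.92-fold), Emb, an immunoglobulin-family adhesion protein (4738 with β-catenin and 1307 with eGFP, 3.63-fold), and Cd68, Cd14, Cd36 and Axl, between 2.34-fold and 3.23-fold, with Cd36 as a lower bound.

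Genes of antigen presentation were higher together. Of 25 measured, 13 (52%) were higher by 2-fold or more with β-catenin and 0 were lower, against 10.2% and 9.41% of all measured genes, with a median log2 ratio of 1.00. MHC class II displays peptides from engulfed material to helper T cells, and 7 of its 14 measured chain and loading genes were higher (median 1.14). H2-Aa, a class II α chain, was at 8397 with β-catenin and 1852 with eGFP (4.53-fold), H2-Ab1, its β chain, at 1903 with β-catenin and 321.7 with eGFP (5.92-fold), and H2-Eb1 at 3102 with β-catenin and 469.6 with eGFP (6.61-fold). Cd74, the invariant chain that guides class II through the cell, was at 7679.5 with β-catenin and 1243 with eGFP, 6.18-fold higher. Ctss, the protease that cleaves the invariant chain, was 8.78-fold higher, at 1012 with β-catenin and 115.3 with eGFP.

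For H2-Ab1 the other probe sets gave log2 ratios of 2.40 and 4.47, and for H2-Aa they gave 1.43 and 3.35, with one more under the floor on both arrays. H2-Oa, a chain of the class II editor, was 5.79-fold higher (391.6 with β-catenin and 67.6 with eGFP). H2-DMa, which loads peptide, was within 2-fold at 1718 with β-catenin and 2709.9 with eGFP, and Ciita, the class II master activator, was near the floor by its brightest probe set, at 63.8 with β-catenin and 54.8 with eGFP. Another Ciita probe set was at 299.4 with β-catenin and 4.5 with eGFP, at least 6.20-fold higher. Class I presentation, which all nucleated cells perform, had 6 of 11 genes higher (median 1.00), such as H2-D1 at 7101 with β-catenin and 2322 with eGFP (3.06-fold) and Nlrc5, a class I transactivator, at 292.9 with β-catenin and 74.3 with eGFP (3.94-fold). B2m, the class I light chain, was at 12917 with β-catenin and 12865 with eGFP. On the DKmix arrays the class II genes were low: H2-Aa was at 7.1 on day 50 and 27.1 on day 300, and Cd74 at 58.8 on day 50 and 99.1 on day 300.

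Class II promoters carry a Y box, the reverse of a CCAAT word, and H2-Aa (chr17:34287824-34288073, minus strand) and H2-Eb1 (chr17:34305617-34305866, plus strand), both at least 4-fold higher, are printed to show it. The capitals mark ATTGG or its reverse complement CCAAT in the 250 bases before the start (RefSeq, GRCm38.p6).
H2-Aa: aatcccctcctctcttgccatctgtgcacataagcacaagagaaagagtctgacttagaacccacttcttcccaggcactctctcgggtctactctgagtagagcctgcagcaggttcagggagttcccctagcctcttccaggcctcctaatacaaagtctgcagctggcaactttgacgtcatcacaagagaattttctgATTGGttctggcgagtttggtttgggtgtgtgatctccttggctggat
H2-Eb1: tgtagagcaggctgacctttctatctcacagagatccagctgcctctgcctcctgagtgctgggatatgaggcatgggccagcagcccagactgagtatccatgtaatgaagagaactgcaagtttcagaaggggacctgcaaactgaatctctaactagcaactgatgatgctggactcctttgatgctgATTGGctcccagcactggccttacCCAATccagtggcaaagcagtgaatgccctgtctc
The match lies 48 bases before the start in H2-Aa, and 59 and 35 bases before it in H2-Eb1. So short a word is common: it was in the window of 44% of the higher genes, 42.7% of the lower genes and 42.3% of all measured genes with a promoter.

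**Figure D3:**
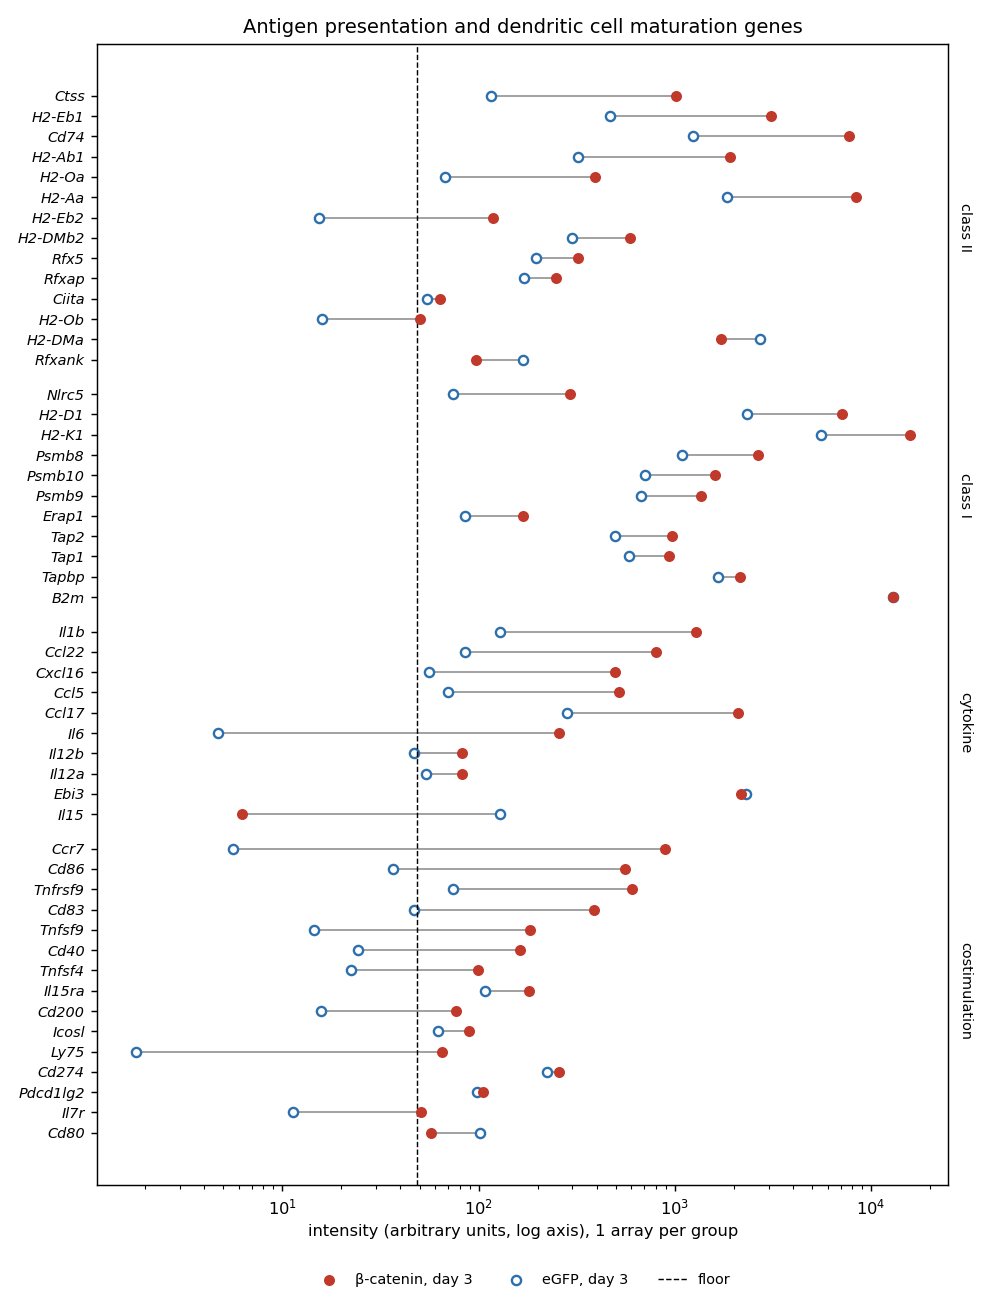
Intensity of measured antigen presentation genes and of cytokine and costimulation genes of dendritic cell maturation, on the β-catenin array (filled red) and the eGFP array (open blue), 1 array per group, log axis, floor dashed. Class II chains, Ctss, Ccl22, Il1b, Cd86 and Ccr7 lie to the right with β-catenin, Il15 lies to the left, and B2m is in the same place on both.

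Genes that dendritic cells switch on when they mature were also higher. Of 37 measured, 18 (48.6%) passed 2-fold upwards with β-catenin and 1 (2.7%) downwards, at a median of 0.99. Of all measured genes, 10.2% were higher and 9.41% lower. The cytokine and chemokine genes led, with 6 of 10 higher, 1 lower and a median of 2.65, and the costimulation and surface genes had 7 of 15 higher and 0 lower (median 0.74). Ccr7, the receptor that brings mature dendritic cells to lymph nodes, was at 892 with β-catenin and 5.6 with eGFP, at least 18.5-fold higher. Cd86, a costimulatory ligand for T cells, was at 557.2 with β-catenin and 36.6 with eGFP, and its further probe set read 476 with β-catenin and 64.4 with eGFP. Cd83, a maturation marker, was at 387.1 with β-catenin and 46.8 with eGFP, at least 8.01-fold higher.

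Among the secreted factors, Ccl17 and Ccl22, both ligands of CCR4 and both on chromosome 8, were at 2089.8 with β-catenin and 282.5 with eGFP (7.40-fold) and at 802.6 with β-catenin and 85.1 with eGFP (9.43-fold). Il1b, the inflammatory cytokine interleukin-1β, was at 1278 with β-catenin and 129 with eGFP (9.91-fold). Cxcl16, a membrane-bound chemokine, was 8.88-fold higher by its brightest probe set (log2 ratio 3.15) and had 2.91 by the other. Ccl5 was 7.40-fold higher and Tnfrsf9, the receptor 4-1BB, 8.18-fold. Il15, a growth factor of natural killer cells, was at 6.2 with β-catenin, under the floor, and 128.2 with eGFP, at least 2.65-fold lower. Ccl17 was at 168.9 on day 50 and 188.2 on day 300, below both day 3 arrays.

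The genes that tell dendritic cell subsets apart did not share a direction. Of 21 measured, 7 (33.3%) were higher and 3 (14.3%) lower, against 10.2% and 9.41% of all measured genes. Conventional type 2 genes had 3 of 5 higher and 1 lower, such as Clec10a and Mgl2, both galactose-binding lectins, at least 6.93-fold and 4.42-fold higher. Conventional type 1 genes had 1 of 8 higher and 2 lower, among them Id2, an inhibitor of bHLH factors, at 215.5 with β-catenin and 2160 with eGFP, and Batf3, 4.58-fold lower. Plasmacytoid genes had 3 of 8 higher and 0 lower, with Tcf4, their lineage regulator, at 432.6 with β-catenin and 112.6 with eGFP. Itgax, which encodes the dendritic cell integrin CD11c, was 5.33-fold lower, at 139.5 with β-catenin and 743.2 with eGFP. No cell type is named from these lists.

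NF-κB factors drive many maturation genes. Of 32 measured subunits, inhibitors and targets, 10 (31.2%) were higher with β-catenin and 1 (3.12%) lower, at a median of 0.52. The shares of all measured genes were 10.2% and 9.41%. Relb, a subunit of the non-canonical branch, was 4.15-fold higher at 512.1 with β-catenin and 123.3 with eGFP, and Map3k14, the kinase of that branch, was at 320.6 with β-catenin and 7.9 with eGFP, at least 6.64-fold higher. The IκB family genes Nfkbib and Nfkbiz were 5.53-fold and 5.19-fold higher, but without probe sets of the _s_at and _x_at kinds Nfkbib had a log2 ratio of -0.48. Tnfaip2 was 2.60-fold lower. The word GGNNTTTCC was in the promoter window of 7.03% of the higher genes, 7.54% of the lower genes and 7.14% of all measured genes.

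Interferon-stimulated genes had 9 of 35 members higher (25.7%) and 1 lower (2.86%), against 10.2% and 9.41% of all measured genes (median 0.50). Gbp2, a guanylate-binding GTPase, was at 285.9 with β-catenin and 41.3 with eGFP, at least 5.92-fold higher, and Ifitm3, a membrane protein that blocks viral entry, was at 3447 with β-catenin and 1438 with eGFP (2.40-fold). Samhd1, a dNTP hydrolase, was 2.74-fold lower. Of 14 interferon regulatory and STAT factors 5 were higher and 0 lower (median 0.52), led by Stat4, which relays IL-12, at 519.4 with β-catenin and 100.3 with eGFP (5.18-fold). The interferon response word GAAANNGAA was in 9.64% of the higher, 8.04% of the lower and 8.68% of all measured promoters.

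Of 36 measured transcription factors of stem and progenitor cells, 16 (44.4%) passed 2-fold upwards and 0 downwards, at a median of 0.69. All measured genes had 10.2% upwards and 9.41% downwards. Homeobox factors and their partners had 3 of 10 higher (median 0.15), and the other families had 13 of 26 (median 0.94). Sox4, an HMG-box factor of early progenitors, was at 899.9 with β-catenin and 131.4 with eGFP (6.85-fold), and 5 further probe sets measured in the pair gave log2 ratios between 1.09 and 3.87, of which 3 are lower bounds. Bcl11a, a zinc finger factor of lymphoid and dendritic cell development that also silences fetal globin, was at 560.4 with β-catenin and 79.1 with eGFP (7.08-fold), and its further measured probe sets were also above 0, at log2 ratios between 0.72 and 2.06. Hoxa9, a homeobox factor that sustains progenitors, was at 266.1 with β-catenin and 23.8 with eGFP, and at 1202 with β-catenin and 34.5 with eGFP by its other probe set, a log2 ratio of at least 4.64.

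Meis1, the partner of HOXA9, was at 194.7 with β-catenin and 44.1 with eGFP, at least 4.03-fold higher, but its probe sets disagreed, with log2 ratios from -0.97 to 2.01. Erg, an ETS factor required by stem cells, was at least 3.77-fold higher by its brightest probe set (182.2 with β-catenin and 8.3 with eGFP) and had at least 1.54 on the log2 scale by the other. Gata2, which maintains stem cells and mast cell progenitors, was at 835.5 with β-catenin and 227.2 with eGFP (3.68-fold). Gfi1, a repressor in stem cells and granulocyte precursors, was at least 5.46-fold higher, and Ikzf2, an Ikaros family factor, 3.68-fold. Several factors that define the list lay within 2-fold by their brightest probe sets: Runx1 was at 539.4 with β-catenin and 447.2 with eGFP, Tal1 at 561.8 with β-catenin and 522.2 with eGFP, Lmo2 at 1593 with β-catenin and 2971 with eGFP, and Myb at 4149 with β-catenin and 2607 with eGFP. Other probe sets of Runx1 had log2 ratios from -0.99 to 2.45, the last a lower bound, and those of Myb had 0.73 and 1.10.

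The surface genes of stem and progenitor cells had 10 of 26 members higher (38.5%) and 4 lower (15.4%), at a median of 0.83. The shares of all measured genes were 10.2% and 9.41%. Cd53, a leukocyte tetraspanin, was at 2490.3 with β-catenin and 153.4 with eGFP (16.2-fold). Cd34, a sialomucin of progenitors, was at 804.1 with β-catenin and 111.8 with eGFP, with 2069 on day 50 and 4293 on day 300. Adgrg1, an adhesion receptor of stem cells, was 5.03-fold higher by its brightest probe set (837.3 with β-catenin and 166.5 with eGFP) and had a log2 ratio of 1.45 by the other. Eng, endoglin, was 4.90-fold higher. Prom1, prominin-1, had the lowest ratio with the floor applied, at 4.8 with β-catenin and 950.9 with eGFP, followed by Cd24a, which was 4.15-fold lower, and Cxcr4, which was 3.04-fold lower.

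**Figure D4:**
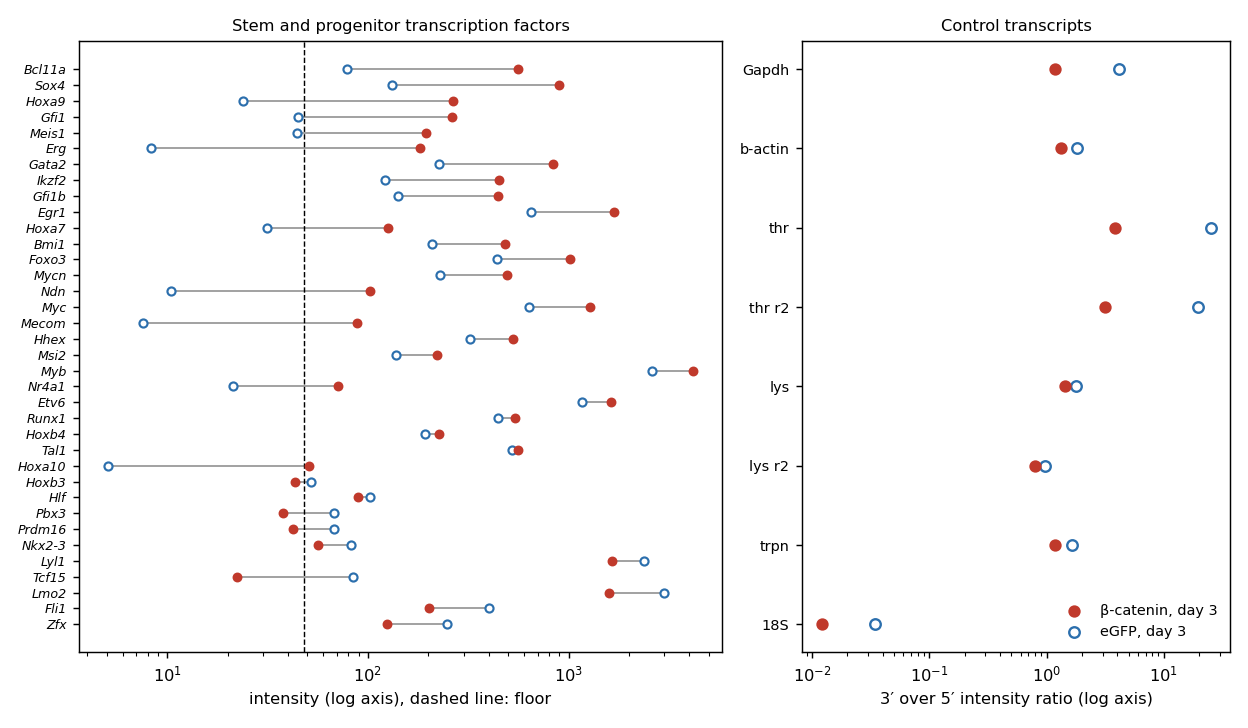
Left, intensity of the 36 measured stem and progenitor transcription factors on the β-catenin array (filled red) and the eGFP array (open blue), log axis, floor dashed; right, 3′ over 5′ intensity ratio of control transcripts on the same arrays, log axis. The 16 factors past 2-fold, all to the right with β-catenin, run from Bcl11a to Myc, and every control ratio is larger on the eGFP array.

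Factors of later myeloid stages were divided, with 5 of 30 higher (16.7%) and 5 lower (16.7%), at a median of 0.24. Among all measured genes these shares were 10.2% and 9.41%. Cebpb and Cebpd, C/EBP factors of granulocytes and macrophages, were lower, with Cebpb at 719.5 with β-catenin and 3776 with eGFP (5.25-fold, and a log2 ratio of -1.55 by its other probe set) and Cebpd at 252.2 with β-catenin and 1094 with eGFP (4.34-fold). Cebpa, which commits progenitors to the myeloid lineage, was within 2-fold, at 587.4 with β-catenin and 385.1 with eGFP, as was Spi1, which encodes PU.1, at 1804 with β-catenin and 1261 with eGFP. Pparg, a lipid-sensing nuclear receptor, was at 35.1 with β-catenin, under the floor, and 831.3 with eGFP, at least 17.2-fold lower. Hif1a, the hypoxia factor, was 2.48-fold higher, and Stat5a and Stat5b, which relay IL-3 signals, were 2.26-fold and 2.24-fold higher.

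The MYC network went both ways. Myc was at 1276 with β-catenin and 633.4 with eGFP (2.02-fold), and Mycn was 2.15-fold higher by its brightest probe set, but another gave 102.6 with β-catenin and 609.2 with eGFP, and the mean log2 ratio of its probe sets was -0.16. Of the MXD repressors, which compete with MYC for MAX, Mxd3 was within 2-fold by its brightest probe set (log2 ratio -0.13, and at least 2-fold lower by the others), and the rest were lower: Mxd1 was at 194 with β-catenin and 1267 with eGFP (6.53-fold), Mxi1 at 290.7 with β-catenin and 1644 with eGFP (5.66-fold), and Mxd4 at 262.4 with β-catenin and 1129.9 with eGFP (4.31-fold). Each further measured probe set of Mxd1, Mxi1 and Mxd4 was also below 0, between -1.78 and -0.46 on the log2 scale. Of the 13 network members measured, 2 (15.4%) were higher and 4 (30.8%) lower, against 10.2% and 9.41% of all measured genes. The E-box word CACGTG, which MYC and MXD proteins share, was in the window of 10.8% of the higher, 9.23% of the lower and 11.2% of all measured genes with a promoter.

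Immediate early and AP-1 genes had 9 of 29 higher (31%) and 4 lower (13.8%), against 10.2% and 9.41% of all measured genes (median 0.25). Junb was at 307.3 with β-catenin and 4.3 with eGFP, at least 6.36-fold higher, and Nr4a3, an orphan nuclear receptor, was 4.05-fold higher. Jun was at 164.8 with β-catenin and 45.6 with eGFP by its brightest probe set, at least 3.41-fold higher, but within 2-fold by the other (108.4 with β-catenin and 101.8 with eGFP). ETS factors had 5 of 17 higher (29.4%) and 0 lower (median 0.49). Among lymphoid factors, 2 of 21 were higher (9.52%, near the 10.2% of all measured genes) and 5 lower (23.8%). Notch1, the receptor and factor of T cell commitment, was at 422.3 with β-catenin and 1952 with eGFP (4.62-fold lower, and a log2 ratio of -2.36 by its other probe set). Among Krüppel-like and SP factors, 1 of 14 was higher (7.14%) and 3 were lower (21.4%), with the erythroid regulator Klf1 at 50.0 with β-catenin and 302.6 with eGFP.

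Ribosome biogenesis genes had 16 of 76 measured members (21.1%) past 2-fold upwards, 0 downwards and 60 within 2-fold (median 0.55). All measured genes had 10.2% upwards and 9.41% downwards. The medians of the ribosome biogenesis classes were 0.52 for polymerase I and rRNA transcription, 0.54 for the small subunit, 0.58 for the large subunit and 0.78 for nucleolar chaperones. Wdr74, of large subunit assembly, was at 1012 with β-catenin and 232.5 with eGFP (4.35-fold), Ddx56, a nucleolar helicase, at 513 with β-catenin and 130.5 with eGFP (3.93-fold), and Rrp9, a U3 snoRNP protein, at 689.1 with β-catenin and 177.3 with eGFP (3.89-fold). Fbl, the rRNA methyltransferase fibrillarin, lay within 2-fold, at 4747 with β-catenin and 2928 with eGFP.

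Aminoacyl-tRNA synthetases, which charge tRNAs, had 6 of 19 higher (31.6%) and 0 lower, against 10.2% and 9.41% of all measured genes (median 0.65). Farsa led them, at 988.7 with β-catenin and 330.6 with eGFP (2.99-fold). Dimmer probe sets of Farsa gave log2 ratios from -0.56 to 0.56. Serine, one-carbon and amino acid stress genes had 8 of 40 higher (20%) and 2 lower (5%), at a median of 0.60. Atf5 was at least 5.39-fold higher, Got1, which makes aspartate, 3.98-fold, and Mthfd2, the mitochondrial one-carbon enzyme, 3.51-fold (1522 with β-catenin and 433.5 with eGFP). Nucleotide synthesis genes had 2 of 25 higher (8%) and 1 lower (4%), against 10.2% and 9.41% of all measured genes (median 0.56). Their members included Gart, a purine synthesis enzyme, at 3012 with β-catenin and 959.8 with eGFP (3.14-fold), and Hprt, of purine salvage, 2.30-fold lower. Translation initiation and elongation factors had 3 of 35 higher (8.57%, near the share of all measured genes) and 0 lower (median 0.11).

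The ribosomal proteins themselves had another median than the assembly factors. Of 43 measured, 3 were lower (6.98%, against 9.41% of all measured genes) and 0 higher. Their median of -0.41 became 0.11 on the hybridisation control scale. This median moved to -0.077 with quantile normalization and -0.035 with lowess centring. Mitochondrial respiratory chain genes had 2 of 45 higher (4.44%, against 10.2% of all measured genes) and 0 lower. Their median of -0.30 became 0.23 on the hybridisation control scale, -0.095 with quantile normalization and -0.080 with lowess centring. Mitosis and spindle genes had 1 of 43 higher (2.33%) and 5 lower (11.6%, near the 9.41% of all measured genes). Their median was -0.30, and 0.23 on the hybridisation control scale. Foxm1, a driver of mitotic genes, was 3.09-fold lower, at 53.6 with β-catenin and 165.6 with eGFP, and Ccnb2, a mitotic cyclin, was 2.18-fold lower. DNA replication genes had 4 of 44 higher (9.09%, near the 10.2% of all measured genes) and 2 lower (4.55%), at a median of 0.12. Mcm3, of the replicative helicase, was 4.14-fold higher by its brightest probe set (1419.6 with β-catenin and 343 with eGFP), with further probe sets between -0.44 and 1.75 on the log2 scale. Among 18 cell cycle control genes 0 were higher and 2 lower (11.1%, near the 9.41% of all measured genes). Both were CDK inhibitors of the INK4 family. Cdkn2d was at 116.1 with β-catenin and 363.3 with eGFP, and Cdkn2c at 25.1 with β-catenin and 122.9 with eGFP.

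Of 53 measured Wnt pathway components 9 (17%) passed 2-fold upwards and 2 (3.77%) downwards, against 10.2% and 9.41% of all measured genes, at a median of 0.19. Frat2, which keeps GSK3 from β-catenin, was at 155.7 with β-catenin and 15.9 with eGFP, at least 3.22-fold higher, and Btrc, the ubiquitin ligase subunit that recognises phosphorylated β-catenin, was at least 2.83-fold higher by its brightest probe set, with the others within 2-fold. Ruvbl2, an ATPase that binds β-catenin, was at 2879.8 with β-catenin and 1046 with eGFP (2.75-fold). The receptor Fzd3 was 2.94-fold lower and the co-receptor Lrp5 at least 2.27-fold lower. Apc, Axin1 and Gsk3b of the destruction complex lay within 2-fold by their brightest probe sets, with log2 ratios of -0.04, 0.50 and -0.25. Another Apc probe set was 2.50-fold higher (187.9 with β-catenin and 75.2 with eGFP), and further Gsk3b probe sets had log2 ratios from -1.24 to 1.59, both ends being bounds set by the floor.

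Genes reported elsewhere as targets of β-catenin and TCF had 6 of 27 measured members higher (22.2%) and 3 lower (11.1%), with a median of 0.15. Among all measured genes, 10.2% were higher and 9.41% lower. Axin2, the most general of them, was at 40.7 with β-catenin, under the floor, and 71.8 with eGFP. Its log2 ratio of -0.57 is thus a bound set by the floor. Lef1 was under the floor on both arrays. Ccnd1, cyclin D1, was within 2-fold by its brightest probe set (337.8 with β-catenin and 362.2 with eGFP) and had log2 ratios of -1.36 and -0.86 by the others. Nkd1, a feedback inhibitor, was at 122.2 with β-catenin and 50.4 with eGFP (2.42-fold higher), Met, the HGF receptor, was 3.77-fold higher and Plaur 2.20-fold. On the lower side, Id2 had log2 ratios of -3.33, -3.40 and -1.40 by its 3 probe sets, and Ppard was at 27.0 with β-catenin and 334.2 with eGFP. The TCF/LEF words ATCAAAG and TTCAAAG were in the window of 92 of 1110 higher genes (8.29%), 60 of 1008 lower genes (5.95%) and 812 of 10760 measured genes (7.55%). Catenins and cadherins had 2 of 14 higher (14.3%) and 1 lower (7.14%).

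Mast cell, basophil and eosinophil genes went both ways, with 9 of 23 higher (39.1%) and 7 lower (30.4%), at a median of 0.10. Among all measured genes the shares were 10.2% and 9.41%. Receptor genes had 5 of 9 higher and 1 lower: Fcer1a and Ms4a2, chains of the IgE receptor, were at 723.5 with β-catenin and 64.4 with eGFP (11.2-fold) and at 810.6 with β-catenin and 87.3 with eGFP (9.29-fold). Cpa3, the mast cell carboxypeptidase, was at 1559.7 with β-catenin and 134.7 with eGFP (11.6-fold), and Gzmb, the protease granzyme B, at 1462 with β-catenin and 25.4 with eGFP, at least 30.3-fold higher. With the floor applied this was the highest ratio of all measured genes, but it is a lower bound, as are other ratios near the top, Ccr7 among them. On the DKmix arrays Cpa3 was brighter than on either day 3 array, at 45531 on day 50 and 15951 on day 300. Gzmb was at 25886 on day 50 and, below its β-catenin day 3 value, at 897.7 on day 300. Of the other measured proteases, Mcpt4 and Tpsb2 were lower, at least 3.06-fold and 2.30-fold, with β-catenin values under the floor. Mediator synthesis genes had 2 of 8 higher and 3 lower: Tph1, of serotonin synthesis, was 5.42-fold and Hdc, of histamine synthesis, 2.84-fold higher, while the leukotriene genes were lower. Ltc4s was at 145.4 with β-catenin and 1875 with eGFP (12.9-fold), Alox5ap at 1202 with β-catenin and 6046 with eGFP (5.03-fold) and Alox5 at 1963 with β-catenin and 5182 with eGFP (2.64-fold). Fcer1g, the shared signalling chain of Fc receptors, was within 2-fold, at 1606 with β-catenin and 2362 with eGFP, and so was Mcpt8, a basophil protease, at 1095 with β-catenin and 1023 with eGFP.

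Among the other lineages, megakaryocyte and platelet genes had 3 of 21 higher (14.3%) and 7 lower (33.3%, against 9.41% of all measured genes; median -0.55, and -0.02 on the hybridisation control scale), with Ppbp, a platelet chemokine, 4.15-fold lower and F2r, a thrombin receptor, 3.27-fold higher. The erythroid and haem list had 5 of 28 members lower (17.9%), Klf1 among them, at a median of -0.31 (0.28 on the control scale). Its 1 higher member was Cpa3, the mast cell carboxypeptidase, which is also in the mast cell list. Of 15 B lymphocyte genes 1 was higher (6.67%) and 0 lower. Of 20 T and natural killer genes 2 were higher (10%, near the 10.2% of all measured genes), Gzmb and Eomes, and 0 lower. Stromal and endothelial genes had 3 of 20 higher (15%) and 3 lower (15%). Their higher member Vim, the intermediate filament of mesenchymal and white blood cells, was at 5303 with β-catenin and 317 with eGFP (16.7-fold), with log2 ratios of 2.37 and 2.49 by its other probe sets.

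**Figure D5:**
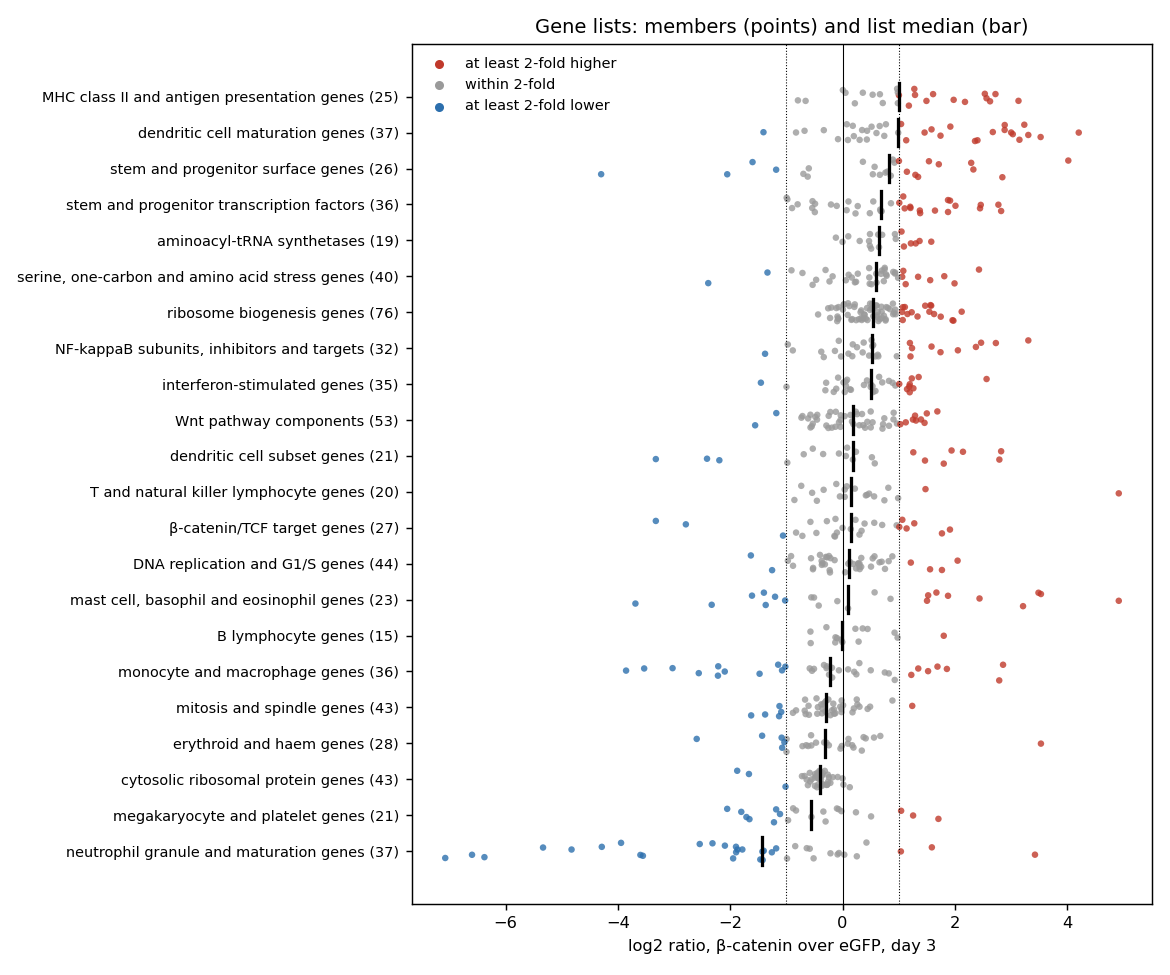
Log2 ratio of β-catenin over eGFP for the measured members of 22 gene lists (points, coloured by the 2-fold call) and each list's median (black bar), with the number measured in brackets. Medians run from -1.43 for neutrophil genes to 1.00 for antigen presentation genes. Those of ribosomal protein, erythroid, mitosis, monocyte and B lymphocyte genes change sign on the hybridisation control scale.

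Chromatin and signalling lists went both ways. Polycomb, Trithorax and DNA methylation regulators had 11 of 51 higher (21.6%) and 8 lower (15.7%), at a median of 0.09. All measured genes had 10.2% higher and 9.41% lower. Hdac6, a tubulin deacetylase, was at least 3.89-fold higher and Pcgf6, a Polycomb ring finger protein, 3.20-fold, whereas Pcgf1 was 4.16-fold lower (54.8 with β-catenin and 227.7 with eGFP) and Kdm6b, an H3K27 demethylase, 3.31-fold lower. Notch, BMP/TGF-β and Hedgehog genes had 7 of 42 higher (16.7%) and 8 lower (19%). Smad6, an inhibitor of BMP signals, was at 4.4 with β-catenin and 588.5 with eGFP, at least 12.2-fold lower, and Skil and Tgfb1 were 3.90-fold and 3.75-fold higher. Integrins and adhesion genes had 5 of 23 higher (21.7%) and 4 lower (17.4%). The leukocyte chain Itgb2 was 4.27-fold lower (1097 with β-catenin and 4679 with eGFP) and the gut-homing chain Itgb7 4.01-fold higher (938.3 with β-catenin and 234 with eGFP).

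Antioxidant and glutathione genes had 3 of 28 higher (10.7%) and 7 lower (25%), against 10.2% and 9.41% of all measured genes. Their median was -0.23, and 0.29 on the hybridisation control scale. Mgst2, a microsomal glutathione transferase, was at 472.5 with β-catenin and 6252 with eGFP (13.2-fold lower), and Gpx3 was 5.32-fold lower, while Txnrd1, thioredoxin reductase, was 3.30-fold higher. The p53 and apoptosis genes had 7 of 47 higher (14.9%) and 5 lower (10.6%), against 10.2% and 9.41% of all measured genes. DNA repair genes had 3 of 34 higher (8.82%), near the share of all measured genes, and 0 lower. Among them, Parp1 was at 1569 with β-catenin and 340.5 with eGFP (4.61-fold) by its brightest probe set, with further log2 ratios from -0.32 to 1.06. Of the telomerase and shelterin genes 1 of 15 (6.67%) was past 2-fold, Terf2ip, at least 3.63-fold higher.

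Among the 30 highest and the 30 lowest ratios of genes that reached 4 times the floor on either array, 19 of the higher and 15 of the lower genes belonged to one of the 53 lists. The lists held 1394 of the 13379 measured genes. They were chosen with earlier results of these data known, so this overlap is partly built in and is no independent result. Outside the lists, the higher side held Cd82, a tetraspanin (1248 with β-catenin and 83.4 with eGFP, 15.0-fold), for which the other probe set was within 2-fold (79.7 with β-catenin and 69.8 with eGFP). It also held Igfbp7, a secreted growth factor binding protein (654.6 with β-catenin and 41.5 with eGFP, at least 13.5-fold, with log2 ratios of -0.91 and -0.84 by dimmer probe sets), Anxa6 (619.9 with β-catenin and 15.8 with eGFP, at least 12.8-fold) and P2ry14, a receptor for UDP-glucose on progenitors (367.7 with β-catenin and 7.8 with eGFP, at least 7.61-fold). Dimmer Anxa6 probe sets gave log2 ratios of 3.21 and 0.42, both lower bounds, and 0.28 (88.1 with β-catenin and 72.6 with eGFP). The lower side held Tesc, tescalcin, a calcium-binding protein (39.7 with β-catenin and 3438 with eGFP, at least 71.2-fold), Pde2a, a cyclic nucleotide phosphodiesterase (39.8 with β-catenin and 1547 with eGFP, at least 32.0-fold, but a log2 ratio of -0.22 by another probe set), and F10, coagulation factor X (102.7 with β-catenin and 2623 with eGFP, 25.5-fold). Hsd11b1, which regenerates active glucocorticoid, was 16.6-fold lower, at 399 with β-catenin and 6621 with eGFP, and Il1rn, the interleukin-1 receptor antagonist, was at least 14.3-fold lower, at 36.9 with β-catenin and 692.2 with eGFP.

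Il1b and Il1rn, agonist and antagonist of the same receptor and both on chromosome 2, thus stood on opposite sides of the comparison. Of 14 housekeeping genes 0 were higher and 1 was lower (median -0.01), namely Hprt at 1036 with β-catenin and 2381 with eGFP, and Actb was at 24324 with β-catenin and 30995 with eGFP. Of 4 sex-linked genes 1 passed 2-fold, Kdm5d, a Y-linked demethylase, under the floor with β-catenin and at 99.2 with eGFP, and with the probe set brightest at day 3 its log2 ratio was 0.92. Xist, the X-inactivation RNA, was at 70.0 with β-catenin and 7.6 with eGFP by its brightest probe set, and at 2.0 with β-catenin and 68.7 with eGFP by another.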

How the data were processed

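RNA of 4 samples, 1 array each, had been measured with biotin-labelled cRNA on Affymetrix arrays. The deposited values are linear signal intensities per probe set, which, per the submitters' processing notes, the authors obtained from MAS5. Its version, detection calls and a genome build are not given in the sources used here. With 2% trimmed from both ends, every array averaged 150, and the values were used on that scale, which assumes that most genes do not differ. Having 1 array per group limits the precision.

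Of 45101 probe sets, 64 controls were set aside, 34945 had 1 symbol in the platform annotation, 932 had several and 9160 were unnamed there. By Entrez identifier 34741 single-symbol probe sets were matched to RefSeq. For each of 18193 genes, the probe set brightest on average (log2 scale, 4 arrays) was used. The pooled median intensity, 48.3, served as a floor to which dimmer values were raised, and log2 ratios of the β-catenin over the eGFP array were taken. A ratio with 1 array under the floor is a lower bound ("at least"), and a gene under it on both was not measured. The call was a ratio of 2-fold. With 1 array per group no test was run, and the ratio and call steps were tested on simulated data. The simulation changed bright genes only and had less noise than the probe sets of the pair. It checks the steps and gives no error rate for the calls reported here.

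The genes named are all Ctnnb1 probe sets, the 30 highest and 30 lowest ratios among genes reaching 4 times the floor (193.2), from each of 53 lists up to 8 members with the largest ratios, members against their list's median, and housekeeping, sex-linked and list-defining genes. The members and the lists were chosen with earlier results of these data known. Some lists share members. Promoter windows ran from 250 bases before to 50 bases after the RefSeq start, and a gene held a motif if any of its windows did. The Y box word and the printed promoters were chosen after seeing the data. Columns of other series numbered 0. Python 3.11.15, numpy 2.4.6, pandas 2.3.3, statsmodels 0.14.6 and matplotlib 3.10.9 were used. Alternatives were quantile normalization, lowess centring (fraction 0.3), the hybridisation control scale, floors at percentiles 25 and 75 (11.0 and 134.6), the mean of all probe sets, the probe set brightest at day 3, leaving out _s_at and _x_at probe sets, thresholds of 3 and 1.5, and a count of genes with all of 2 or more probe sets past 2-fold.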

Additional observations from a re-analysis of the deposited data

How the results depend on the processing

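The counts of genes past 2-fold depended on the processing. On the hybridisation control scale 3690 genes were higher with β-catenin. With the floor at percentile 25 there were 3529 higher and 3388 lower, and at percentile 75 there were 604 higher and 542 lower. A threshold of 3 gave 419 higher and 380 lower, and a threshold of 1.5 gave 2860 higher and 2907 lower. Where all of at least 2 measured probe sets had to pass 2-fold the same way, 117 genes were higher and 86 lower. Of the 13 lists with a median log2 ratio of at least 0.5 in size, 0 changed sign under any alternative. The hybridisation control scale shifts ratios upwards by construction, so it could not test whether positive medians keep their sign. On the hybridisation control scale, which moved the median of all genes to 0.46, the medians were 1.53 for antigen presentation, 1.51 for dendritic cell maturation, 1.46 for stem surface genes, 1.21 for stem factors, 1.17 for tRNA synthetases, 1.13 for serine and amino acid stress, 1.09 for nucleotide synthesis, 1.07 for ribosome biogenesis, 1.05 for NF-κB, 1.04 for interferon regulatory and STAT factors, 1.02 for interferon-stimulated genes and -0.024 for megakaryocyte genes. With the floor at percentile 25 they were -1.88 for neutrophil genes, 1.18 for antigen presentation, 2.16 for dendritic cell maturation and 1.17 for stem surface genes, and at percentile 75 they were -1.87 for neutrophil genes, 0.81 for dendritic cell maturation and 0.36 for NF-κB. The mean of all probe sets gave 1.18 for antigen presentation, -0.085 for megakaryocyte genes and 0.33 for serine and amino acid stress. Megakaryocyte genes had -0.33 after lowess centring and -0.34 with the probe set brightest at day 3, and tRNA synthetases had 0.93 without _s_at and _x_at probe sets. Among the named genes past 2-fold, sign changes were Nfkbib (-0.48 without those probe sets), Mycn (-0.16 with the mean of all probe sets) and Kdm5d (0.92 with the probe set brightest at day 3). The cause of these shifts was not tested beyond what each setting does by construction. No paired analysis was possible because each group is 1 array. With 1 array per group no replicate could be left out, and values near the floor limit the folds.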
